A study of Mus musculus with 23 samples.

Results

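The genes described here are 36 genes of fibroblasts and of the extracellular matrix, out of 55401 Ensembl gene identifiers measured in mouse tumours. They were chosen by name: 12 collagen chains, 6 fibre and adhesion glycoproteins, 4 matricellular proteins, 3 small leucine-rich proteoglycans, 3 crosslinking oxidases, 4 fibroblast surface proteins, 2 contractile genes and 2 other secreted fibroblast markers. All 36 symbols matched 1 identifier each, and all 36 passed the filter on low counts that left 24440 genes to test. The rule that names them uses no measured value, but it was written with earlier results of these data known.

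Fibroblasts build the matrix that holds a tissue together. Fibrillar collagens I, III and V form its tensile fibres, small leucine-rich proteoglycans such as decorin and biglycan coat these fibres and set their spacing, lysyl oxidases crosslink them, and collagen IV forms the sheets of basement membranes under epithelium and around vessels. In solid tumours, fibroblasts activated by the tumour, often recognised by the surface protease FAP and by smooth muscle actin, remodel this matrix, which can limit the entry of T cells and of drugs.

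RNA was measured in 23 bulk libraries from sections of flank tumours in male C57/BL6 mice aged 8 to 10 weeks. Every tumour grew from TC2Ras, a line made from the mouse prostate adenocarcinoma line TRAMP-C2 by lentiviral transfer of an activated H-ras, so all groups share this transgene and its single cell line. The mice received, in the tibialis anterior muscle of the leg, 10 µg of plasmid per muscle by sonoporation (ultrasound with microbubbles), either the empty pTSTA-ctrl (EV) or pTSTA-IL27pepL (IL27v), which encodes the cytokine IL-27 with a short peptide, pepL. Tumours were then held ex vivo in 1 of 6 conditions: media alone, anti-PD-L1 (an antibody against an immune checkpoint ligand), cabozantinib (an inhibitor of several receptor tyrosine kinases), docetaxel (a taxane that stabilises microtubules), IL-27 protein, or cabozantinib plus IL-27. Crossing 2 vectors with 6 conditions gave 12 groups of 2 libraries each, but IL27v tumours held in IL-27 gave 1 library, numbered replicate 2. The TSTA plasmids carry GAL4 and VP16 elements, and the labels name no promoter of the cytokine. Nothing in the labels says that replicates came from separate mice, so every p-value below reflects spread between libraries alone, and that spread may be technical. A library is called by its vector, condition and replicate number. Levels are CPM, the count of a gene over 1000000 counts of its library, with library sizes scaled by the trimmed mean of M-values. In whole tissue, fewer fibroblasts and less RNA per fibroblast cannot be told apart, and the tumour cells may themselves transcribe some of these genes.

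Libraries held 47641781 to 83088346 counts (median 68457697), so 1 CPM stood for 36.3 to 86.5 counts, and the 36 genes took 0.459 to 1.72% of each library. The libraries fell into sets that do not follow the labelled groups. Set A is 9 EV libraries with 1.27 to 18.4 CPM over 13 skeletal muscle genes. Set B has 483 to 710.1 CPM of those muscle genes and 14.1 to 18.8 CPM of the neutrophil granule gene Ngp, and consists of both IL27v media libraries, both EV libraries of cabozantinib plus IL-27, and EV anti-PD-L1 2. Set C is 8 IL27v libraries with 619.5 to 974 CPM of the muscle genes and Ngp at 0. IL27v docetaxel 1, where 27.2% of counts belonged to a single gene, is in no set. As a result, IL27v media lies wholly in set B and IL27v anti-PD-L1 wholly in set C, and that comparison of conditions cannot be told apart from the sets. Of the epithelial tumour markers expected of an adenocarcinoma, Krt8 had a median of 19.6 CPM, while Epcam was at 0 in 7 of 23 libraries and Cldn7 in 16. Fibroblast markers were present in every library but at unlike levels. Pdgfra was at 67.6 CPM or more and Dcn at 627 CPM or more. Fap fell to 0.579 CPM in IL27v docetaxel 1 and Pi16 to 0.416 CPM in IL27v media 1.

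Upstream windows are shown for the pair of genes that differed between the vectors, Bgn and Col6a3, because the results for the vector turn on them. Each window is the 250 bases before the start site, taken from RefSeq (GRCm38.p6), which gave windows for 21 of the 36 genes. Capitals mark a GC box, GGGCGG on either strand, the letters bound by Sp-family factors. The windows are chrX:73483351-73483600 (plus strand) for Bgn and chr1:90843972-90844221 (minus strand) for Col6a3, both written 5′ to 3′ along the gene.
Bgn: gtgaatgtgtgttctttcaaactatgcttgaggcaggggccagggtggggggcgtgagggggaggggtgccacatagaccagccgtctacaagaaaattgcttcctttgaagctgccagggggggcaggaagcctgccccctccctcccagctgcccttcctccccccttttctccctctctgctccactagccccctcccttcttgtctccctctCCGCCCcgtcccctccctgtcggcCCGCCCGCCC
Col6a3: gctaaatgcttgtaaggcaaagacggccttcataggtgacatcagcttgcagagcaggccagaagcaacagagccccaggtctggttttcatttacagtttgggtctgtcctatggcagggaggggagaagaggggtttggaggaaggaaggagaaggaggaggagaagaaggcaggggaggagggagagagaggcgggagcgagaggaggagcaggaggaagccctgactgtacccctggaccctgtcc
The Bgn window holds 3 GC boxes on the reverse strand in its last 34 bases, and its last 2 boxes share 2 bases. The Col6a3 window holds none of the 6 motifs searched on both strands, which were the TATA box (TATAAA), the CAAT box (CCAAT), the GC box, the AP-1 site (TGANTCA), the STAT site (TTCNNNGAA) and the SMAD site (CAGACA). Over all 32851 RefSeq windows of this length, GGGCGG was present in 32.74%, and 9 of the 21 genes held it. The STAT letters were present in 7.02% of all windows and in 1 of the 21 genes, Dpt, which encodes dermatopontin. These matches describe letters only, and binding was not measured.

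The 36 genes differed widely in level. Per kilobase of transcript, Bgn was the most abundant at a mean of 794 CPM per kb, then Dcn at 665, Sparc at 468 and Col3a1 at 212 CPM per kb. At the other end were Col12a1 at 1.40, Col14a1 at 1.28 and Fap at 0.980 CPM per kb. The genes also differed in how steady they were across the 23 libraries. Loxl2, a lysyl oxidase-like enzyme, spanned only 2.23-fold from its lowest to its highest CPM, and Col4a1 spanned 3.19-fold. Col14a1, a fibril-associated collagen, ran from 0.101 CPM in EV docetaxel 1 to 63.0 CPM in IL27v media 2, a span of 621-fold, Mfap5, a microfibril protein, spanned 179-fold, and Pi16, a marker of adventitial fibroblasts, spanned 105-fold.

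Chains of collagen I and of collagen IV kept closer ratios than their own levels, and of the collagen VI chains 1 pair did and 1 did not. Col1a1 over Col1a2, both per kb, had a median of 1.02 and ranged from 0.416 in IL27v media 1 to 1.54 in EV docetaxel 2, while Col1a1 itself spanned 17.1-fold. Col4a1 over Col4a2 had a median of 1.21 and ranged from 0.837 to 1.56, a span of 1.86-fold beside 3.19-fold for Col4a1 and 4.97-fold for Col4a2. Col6a1 over Col6a2 spanned 2.30-fold, beside 7.38-fold for Col6a1 and 13.3-fold for Col6a2. Col6a3 over Col6a1 spanned 8.28-fold, more than Col6a3 (3.80-fold) or Col6a1. Across the 23 libraries, the nearest pattern to Dpt among the other members was that of Sparc (Spearman 0.91), the nearest to Lum was Postn (0.90), the nearest to Dcn was Lum (0.89), the nearest to Col6a3 was Fn1 (0.87) and the nearest to Acta2 was Tagln (0.85). The least alike pair was Fbln2 and Lum (-0.58). These correlations describe libraries that share sets, depth and base composition, and no test was made of them.

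Replicates of 1 group could stand far apart for these genes. In IL27v media, 25 of the 36 genes differed by more than 2-fold between the pair of libraries, all of them higher in IL27v media 2, and the median log2 difference over the 36 was 1.77. Col3a1, the chain of collagen III, had 3660.0 CPM in IL27v media 2 but 285 CPM in replicate 1. Pi16 had 0.416 and 22.4 CPM there. In IL27v anti-PD-L1, 14 genes differed by more than 2-fold, and 15 did in EV with ex vivo IL-27. None did in either group given cabozantinib plus IL-27. Between replicates, the median absolute log2 difference was 1.77 for members and 0.604 for all genes in IL27v media. It was 0.725 for members and 0.282 for all genes in IL27v anti-PD-L1. In EV with ex vivo IL-27 members differed less than all genes, at 0.807 against 0.992. Any comparison against IL27v media therefore rests on a pair of libraries that disagree about most of these genes.

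**Figure D1:**
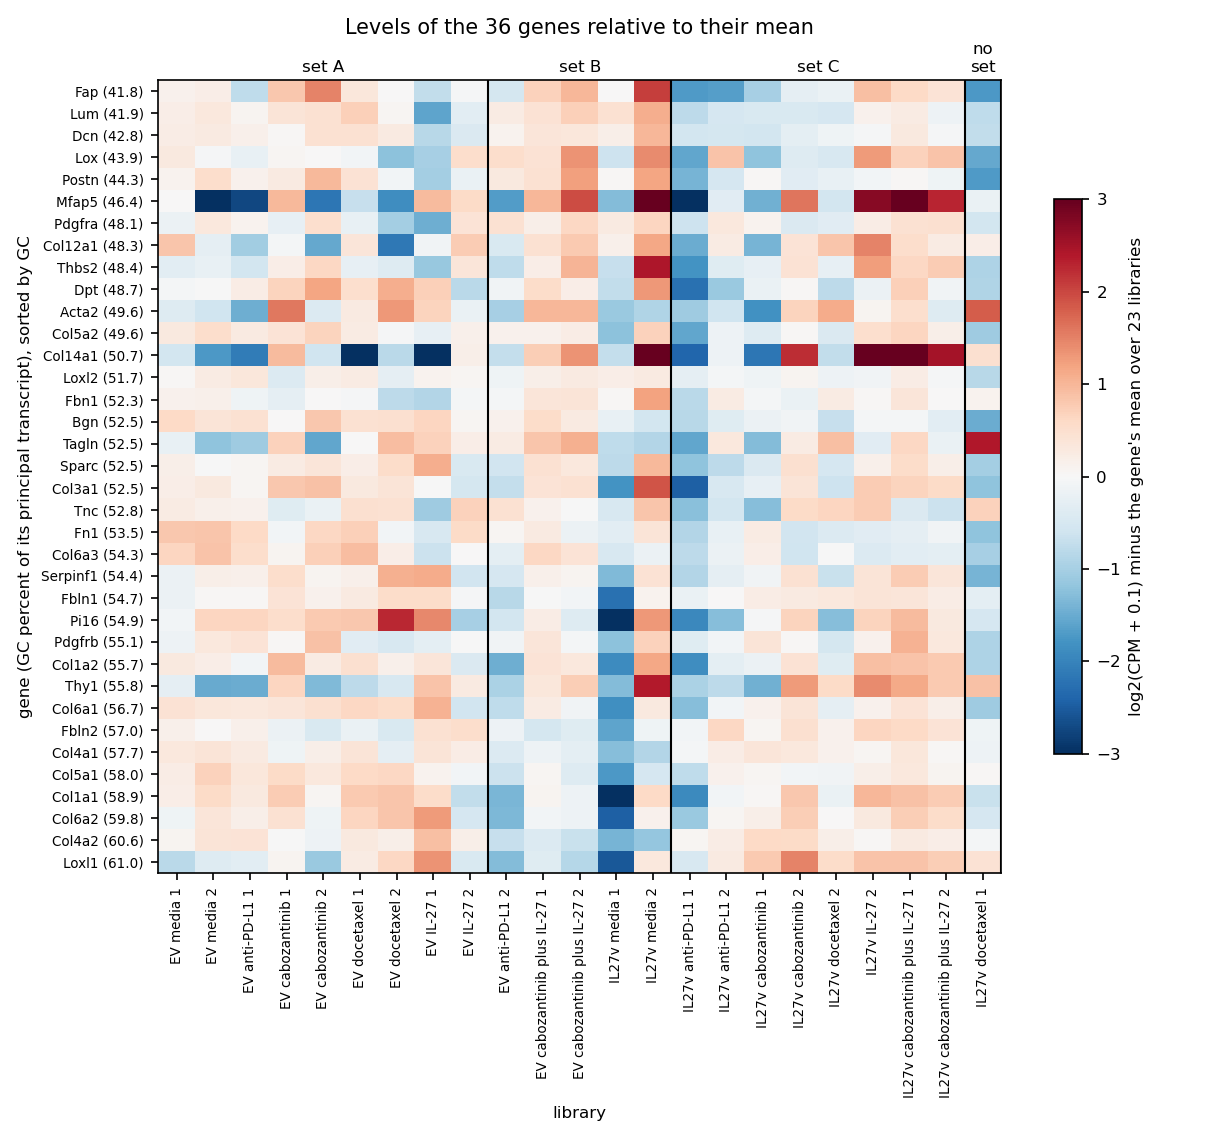
Level of each of the 36 genes in each library, as log2(CPM + 0.1) minus the gene's mean over the 23 libraries, with colours limited to 3 either way; genes run from low to high GC content of their principal transcript (percent in parentheses) and libraries are ordered by set. IL27v media 2 is high for most genes, IL27v media 1 is low for the GC-rich genes at the bottom, and IL27v anti-PD-L1 1 is below the mean for most genes.

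For the vector, the question was whether matrix genes differed between tumours of IL27v and EV mice, averaged over the 6 ex vivo conditions. Biglycan and the alpha 3 chain of collagen VI were lower in IL27v tumours, by 0.82 and 0.71 on the log2 scale. No member was called higher. The edgeR quasi-likelihood test called 2 of 36 genes lower at a Benjamini-Hochberg adjusted p under 0.05, beside 0.671% of all tested genes lower and 2.28% higher. At an unadjusted p under 0.05, 6 members were lower and 4 higher, against 5.65% and 8.82% of all genes. The median difference of the 36 genes was -0.15, beside 0.01 over all tested genes, and 26 of the 36 (72.2%) were negative, beside 49.0% of all genes.

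Bgn (ENSMUSG00000031375, chrX:73483602-73495933, plus strand, GRCm38) encodes biglycan, a proteoglycan of collagen fibres that is also shed as a danger signal to innate immune cells. In the 12 EV libraries it ranged from 1821 to 3162 CPM with a median of 2471, and in the 11 IL27v libraries from 642 to 1739.5 CPM with a median of 1459. The groups did not overlap: every IL27v library was below every EV library. Of all tested genes, 0.0245% (6 genes) showed IL27v wholly below EV in this way, and 0.0286% (7 genes, no member) showed IL27v wholly above. The separation of Bgn was lost with each library's trend of level against transcript GC content removed, an alternative added after the data were seen. IL27v media 1 then had 1932 CPM and EV cabozantinib 1 had 1836 CPM. The means were 2419.6 ± 408 CPM in EV (SD, n = 12) and 1377 ± 344 CPM in IL27v (SD, n = 11). By condition, the Bgn levels of the IL27v replicates were 1545 and 1225 CPM in media, 1021 and 1409.6 with anti-PD-L1, 1590.5 and 1667 with cabozantinib, 642 and 1112 with docetaxel, 1739.5 with IL-27 and 1733 and 1459 with cabozantinib plus IL-27. The matching EV pairs were 2744 and 2369 CPM in media, 2456 and 1963 with anti-PD-L1, 1821 and 3162 with cabozantinib, 2487 and 2509 with docetaxel, 2829 and 1871 with IL-27 and 2663 and 2161 with cabozantinib plus IL-27. The difference was largest with docetaxel, at -1.56 on the log2 scale, and smallest with ex vivo IL-27, at -0.40. The fitted log2 difference was -0.82 ± 0.14 (SE; edgeR quasi-likelihood test, adjusted p = 0.0053).

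Because EV and IL27v libraries mostly lie in different sets, Bgn was also read inside set B, the only set that holds both vectors. In set B, the EV libraries were held with anti-PD-L1 or cabozantinib plus IL-27, and the IL27v libraries in media. Vector and condition cannot be told apart there. There the 3 EV libraries ranged from 1963 to 2663 CPM and the pair of IL27v libraries from 1225 to 1545 CPM, so they again did not overlap. In that comparison of 3 against 2 libraries, IL27v was wholly below EV for 4 members (Bgn, Col4a1, Col4a2 and Tagln) and for 8.62% of all genes, and wholly above for no member and 8.53% of all genes. In an additive model with the set as a term, the Bgn difference was -0.72 ± 0.39 (edgeR, adjusted p = 1), and neither Bgn nor Col6a3 was called.

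Col6a3 (ENSMUSG00000048126, chr1:90765923-90843971, minus strand) encodes the alpha 3 chain of collagen VI, a beaded filament that links cells to the surrounding fibres. Its 12 EV libraries ranged from 144 to 429 CPM with a median of 313, and its 11 IL27v libraries from 113 to 259.6 CPM with a median of 182. The groups overlapped, but all 11 IL27v libraries were below the EV median and the IL27v mean was lower in 6 of 6 conditions. Media gave 354 and 410.3 CPM in EV against 161 and 199 in IL27v, and cabozantinib plus IL-27 gave 347 and 299.7 in EV against 182 and 185. Anti-PD-L1 gave 326 and 185 CPM of Col6a3 in EV against 130.1 and 201 in IL27v, cabozantinib 241 and 371 against 259.6 and 149.6, and docetaxel 429 and 259.7 against 113 and 225. With ex vivo IL-27, EV had 144 and 227 CPM and the 1 IL27v library had 169, between them. The log2 difference was -0.71 ± 0.17 (edgeR, adjusted p = 0.035), from means of 299.5 ± 89.3 CPM (SD, n = 12) to 179 ± 41.9 CPM (SD, n = 11). Inside set B the vectors overlapped, with 185 to 347 CPM in EV and 161 to 199 CPM in IL27v. Vector and condition cannot be told apart in that set. The Col6a3 call held in 12 of the 23 fits that each left out 1 library (-0.85 to -0.64, adjusted p 0.021 to 0.078), and that of Bgn in all 23 (-0.91 to -0.74, adjusted p 0.0042 to 0.018). The other chains of the same molecule, Col6a1 and Col6a2, were not called, with log2 differences of -0.45 and -0.17. Col6a1 had a median of 446 CPM in EV (206 to 722) and 379 CPM in IL27v (97.8 to 467).

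Fn1, which encodes fibronectin, the adhesion glycoprotein on which collagen fibres assemble, did not pass the threshold. It ranged from 464 to 1157 CPM in EV (median 873) and from 281 to 852 CPM in IL27v (median 524). All 11 IL27v libraries were below the EV median, and the mean was lower in 6 of 6 conditions, with a log2 difference of -0.65 ± 0.19 (edgeR, adjusted p = 0.073). Col14a1 went the other way, with 0.101 to 6.17 CPM in EV (median 1.47) and 0.374 to 63.0 CPM in IL27v (median 3.34). Its difference of 2.28 ± 0.65 (edgeR, adjusted p = 0.071) also missed the threshold, and the groups overlapped, with only 5 IL27v libraries above the highest EV library.

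**Figure D2:**
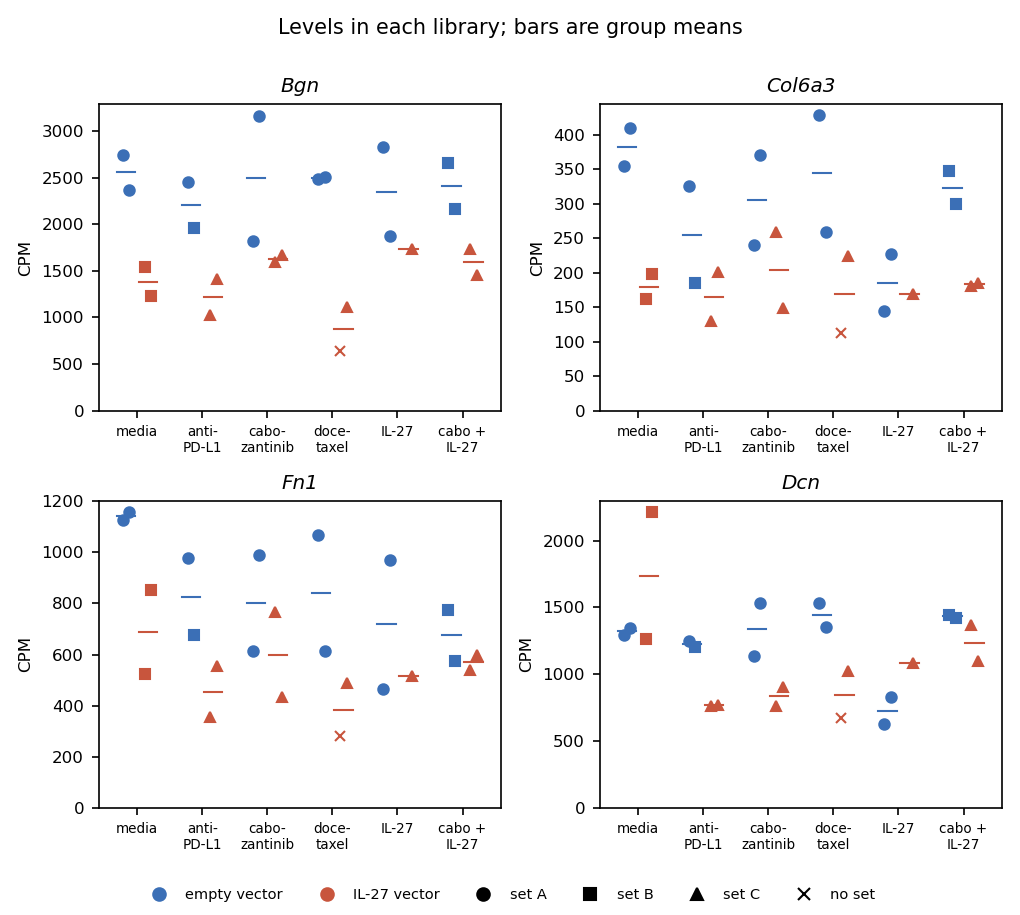
CPM (linear axis) of Bgn, Col6a3, Fn1 and Dcn in every library by ex vivo condition, with blue for EV, red for IL27v, marker shapes for the sets and bars for group means. Every red Bgn point lies below every blue one, while the red and blue points of the other genes overlap.

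By role, the 5 fibrillar collagen chains all had negative vector differences, between -0.37 and -0.05, and none was called. Col1a1, the main chain of collagen I, averaged 715 ± 263 CPM in EV and 681 ± 385 CPM in IL27v, and Col3a1 averaged 1195 ± 356 and 1157 ± 981 CPM (SD, n = 12 and 11), in both cases far within the spread. The collagen IV chains had differences of -0.15 for Col4a1 and -0.10 for Col4a2. Of the proteoglycans, Bgn was called, and Dcn and Lum, which encode decorin and lumican, had differences of -0.23 and -0.29. Dcn ranged from 627 to 1536 CPM in EV (median 1319) and from 669 to 2215 CPM in IL27v (median 1025). These ranges overlapped, and the highest value, above all of EV, is IL27v media 2. Loxl2 ranged from 185 to 308 CPM in EV (median 270.0) and from 138 to 297 CPM in IL27v (median 236). Among the fibroblast surface proteins, none of 4 was called. Pdgfra, the receptor for platelet-derived growth factor that marks most fibroblasts, had a median of 207 CPM in EV (67.6 to 288) and 216 CPM in IL27v (122 to 291). Serpinf1, which encodes the secreted factor PEDF, had a median of 178 CPM in EV (107 to 345) and 148 CPM in IL27v (60.6 to 269). Sparc, a collagen-binding matricellular protein, had a median of 1162 CPM in EV (669 to 2093) and 733 CPM in IL27v (427 to 1959).

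Skeletal muscle markers, which also define the sets, differed between the libraries beside these values. Over the 13 muscle genes the sum was 1.27 to 562.5 CPM in EV and 28.7 to 974 CPM in IL27v. In set B it was 527, 562.5 and 483 CPM in the EV libraries and 710 and 574 CPM in the IL27v media pair. The lowest IL27v value, 28.7 CPM, belongs to IL27v docetaxel 1. The sums of the endothelial list were 137 to 182 CPM in EV and 26.2 to 336 CPM in IL27v, and those of the macrophage list 98.3 to 368 and 138 to 498 CPM. Keratinocyte markers summed to 2.94 to 11.6 CPM in EV and to 3.60 to 3753 CPM in IL27v. Their part in the Bgn and Col6a3 results was not tested.

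For anti-PD-L1, the comparison is with media, within each vector and averaged over both. Averaged, no member was called, and neither was any other gene (0% by edgeR). At an unadjusted p under 0.05, 12 members were lower and 1 was higher, beside 1.55% and 4.29% of all genes. The median of the 36 was -0.50, beside -0.01 over all genes, with 29 of 36 negative. The smallest p belonged to Fap, at -2.05 ± 0.47 on the log2 scale (edgeR, adjusted p = 0.56). DESeq2 called Fap alone among the members in this comparison (adjusted p = 0.0034), among 105 genes in all.

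In EV tumours, no difference between anti-PD-L1 and media passed the test. None of the 36 was called, beside 0% of all genes, and none reached an unadjusted p under 0.05, beside 0.953% of all genes higher and 0.454% lower (edgeR). The median difference was -0.26, beside 0.00 over all genes, and 30 of 36 were negative. Both anti-PD-L1 libraries were below both media libraries for 13 members, among them Col3a1, Col4a1, Col6a1, Col6a3, Col12a1, Fn1, Dcn and Fap, beside 9.83% of all genes, and above for none, beside 11% of all genes. EV anti-PD-L1 2 is the only EV library of this comparison in set B. Col1a1 had 674 and 876 CPM in media and 726 and 229.8 CPM with anti-PD-L1, where the low value is that library. Col12a1, a collagen that decorates type I fibres, had 24.1 and 11.1 CPM in media and 6.45 and 9.80 CPM with anti-PD-L1.

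In IL27v tumours, anti-PD-L1 went with a lower level of Fap and a higher level of Col4a2. The edgeR test called 1 member lower, beside 0.00409% of all genes, a share that is Fap itself as the 1 gene called lower anywhere. It called 1 member higher, beside 0.863% of all genes (211 genes). At an unadjusted p under 0.05, 13 members were lower and 3 higher, beside 2.85% and 7.47% of all genes. The median of the 36 was -0.61, beside -0.04 over all genes, and 27 of 36 were negative. This median rests on single libraries: it was 0.38 without IL27v media 2 and -1.37 without IL27v anti-PD-L1 2. Both calls were lost with the replicate number as a block (adjusted p = 0.055 for Fap and 0.073 for Col4a2, by edgeR) and in a fit of only the groups compared (adjusted p = 0.41 and 0.31).

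Fap (ENSMUSG00000000392, chr2:62500943-62574075, minus strand) encodes fibroblast activation protein, a surface protease of activated fibroblasts. In IL27v it had 2.18 and 9.33 CPM in media (147 and 625 counts) and 0.594 and 0.619 CPM with anti-PD-L1 (46 counts in each library). In EV it had 2.37 and 2.47 CPM in media (180 and 214 counts) and 1.23 and 1.45 CPM with anti-PD-L1 (100 and 102 counts). In both vectors the anti-PD-L1 libraries were below the media libraries, which also held for Dcn and for 2.04% of all genes. No member was above media in both vectors, beside 1.94% of all genes. The fall in IL27v was -3.24 ± 0.70 on the log2 scale (edgeR, adjusted p = 0.042), while the EV difference of -0.85 ± 0.65 was not called (adjusted p = 1). The difference between the 2 vectors was itself tested as an interaction and was not called, at -2.39 ± 0.92 (edgeR, adjusted p = 0.47). Without IL27v media 2, which holds the highest Fap level of all libraries, the difference in IL27v was -1.85 (adjusted p = 0.20), and the call held in 11 of the 23 fits that left out 1 library. Over the other conditions Fap was 3.85 and 6.18 CPM with cabozantinib in EV and 1.04 and 1.76 in IL27v, 2.74 and 2.15 with docetaxel in EV and 0.579 and 1.86 in IL27v, 1.24 and 2.09 with IL-27 in EV and 4.14 in IL27v, and 3.55 and 4.36 with cabozantinib plus IL-27 in EV and 3.32 and 2.91 in IL27v. The lowest library of all, IL27v docetaxel 1, is the one outside the sets.

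Col4a2 (ENSMUSG00000031503, chr8:11312805-11449287, plus strand) encodes the alpha 2 chain of basement membrane collagen IV, and Col4a1 the alpha 1 chain. In IL27v, Col4a2 had 169.9 and 202 CPM in media and 471 and 526 CPM with anti-PD-L1. In EV it had 475 and 586 CPM in media and 597 and 279 CPM with anti-PD-L1. The IL27v groups did not overlap and the EV groups did. The IL27v difference was 1.42 ± 0.32 (edgeR, adjusted p = 0.049), and the interaction with the vector was 1.70 ± 0.45 (adjusted p = 0.23). Col4a1 had 229 and 304 CPM in IL27v media and 530.3 and 650.0 CPM with anti-PD-L1, a difference of 1.15 ± 0.29 that missed the threshold (adjusted p = 0.077). In EV, Col4a1 had 688 and 724 CPM in media and 668 and 420.1 CPM with anti-PD-L1. These genes lie head to head on chromosome 8, with start sites at 11312826 on the minus strand for Col4a1 and 11312805 on the plus strand for Col4a2, so their 5′ ends share 22 bases, and the strand setting of the counting is not given in the sources used here.

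The Col4a2 call held in 8 of the 23 fits that left out 1 library, with differences of 1.34 to 1.55. Levels in the 8 set C libraries were 464 to 685 CPM and in the 9 set A libraries 402 to 844 CPM, while the EV libraries of set B had 279 to 336 CPM and the IL27v media pair, also in set B, 169.9 to 202 CPM. With each library's trend of level against transcript GC content removed, an alternative added after the data were seen, the Col4a2 difference turned to -0.39 (edgeR, adjusted p = 0.88), with 707 and 343 CPM in IL27v media and 383 and 419 CPM with anti-PD-L1. The Col4a2 transcript has a GC content of 60.6% and that of Fap 41.8%. Over the 36 genes, the anti-PD-L1 difference in IL27v rose with GC content with a Spearman correlation of 0.60, beside 0.68 over 12008 genes, and of 0.21 after the removal. Fap remained at -2.93 with the trend removed but was no longer called (adjusted p = 0.12).

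**Figure D3:**
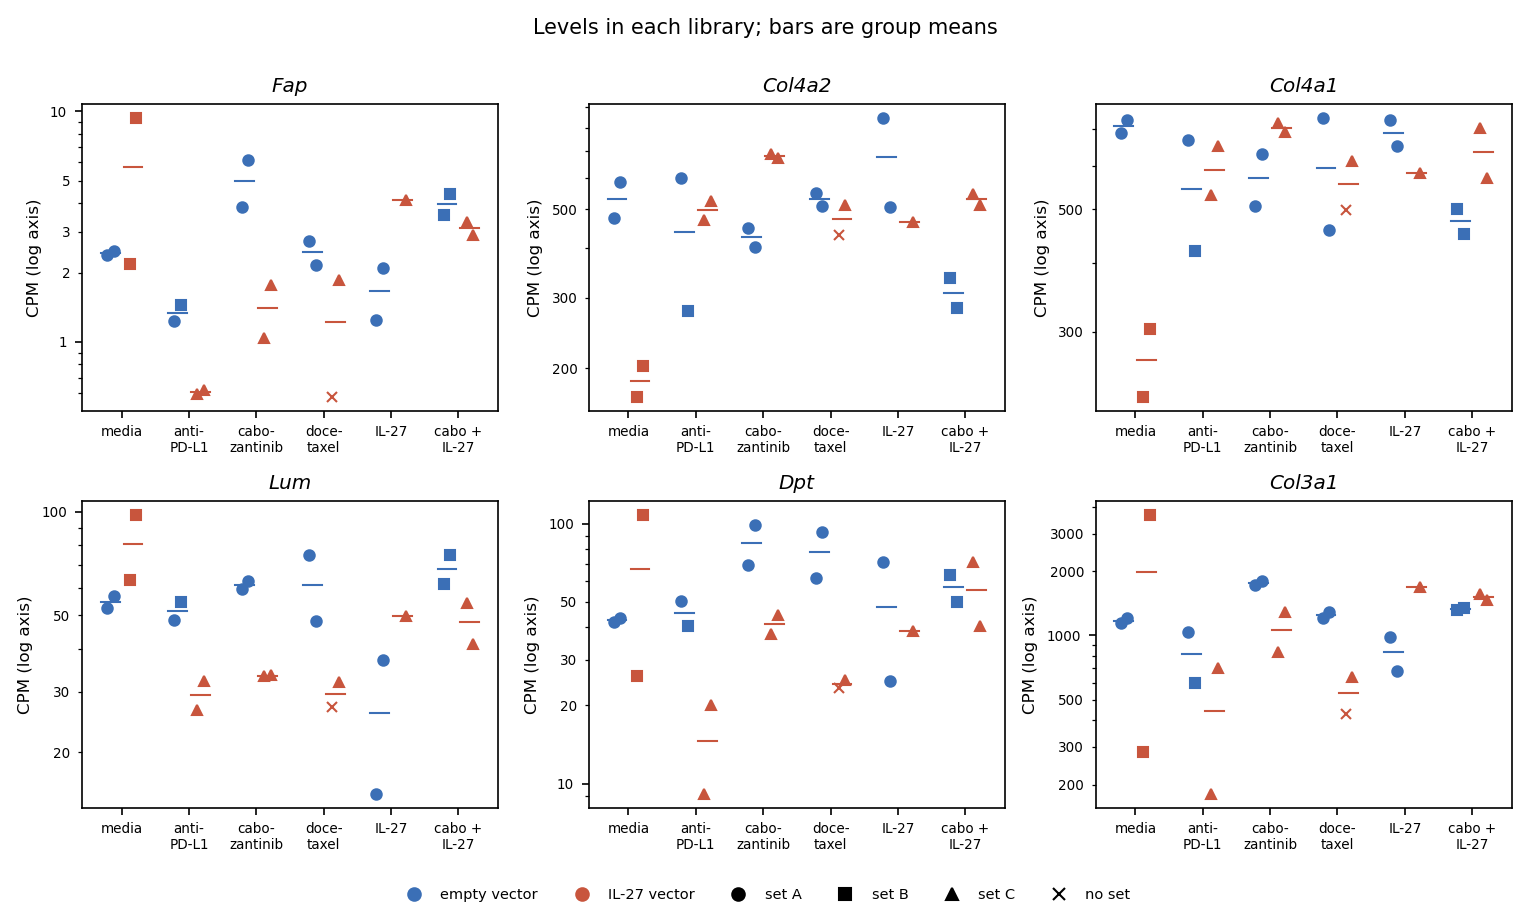
CPM (log axis) of Fap, Col4a2, Col4a1, Lum, Dpt and Col3a1 in every library by ex vivo condition, with blue for EV, red for IL27v, shapes for the sets and bars for group means. The red media points of Col4a2 and Col4a1 are the lowest of all libraries, and the red anti-PD-L1 points of Fap sit at 0.594 and 0.619 CPM, below all others but the 1 library outside the sets.

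Other members were lower with anti-PD-L1 in IL27v without passing the threshold. Lum, the lumican gene, had 63.3 and 97.8 CPM in media and 26.5 and 32.2 CPM with anti-PD-L1, a log2 difference of -1.46 ± 0.37 (edgeR, adjusted p = 0.073). Dcn had 1259 and 2215 CPM in media and 763 and 770.2 CPM with anti-PD-L1 (-1.18 ± 0.30, adjusted p = 0.076). Neither pair overlapped. In EV, Dcn had 1296 and 1343 CPM in media and 1251 and 1202 CPM with anti-PD-L1, and Lum 52.6 and 56.7 against 48.5 and 54.5 CPM, where Lum overlapped. Dpt had 25.9 and 108 CPM in IL27v media and 9.15 and 20.1 CPM with anti-PD-L1 (-2.19 ± 0.58, adjusted p = 0.091). Postn, which encodes periostin, had 387 and 859 CPM against 144 and 269 CPM, and Tnc, which encodes tenascin-C, 131 and 329 against 77.2 and 125 CPM. All 4 matricellular genes had negative differences in IL27v, from -2.49 for Thbs2 to -1.19 for Tnc, and none was called.

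Other members overlapped between anti-PD-L1 and media in IL27v, where the media pair was far apart. Col3a1 had 285 and 3660.0 CPM in media and 181 and 703 CPM with anti-PD-L1 (-2.16 ± 0.75, edgeR adjusted p = 0.24). Sparc had 572 and 1959 CPM in media and 427 and 572 CPM with anti-PD-L1. Col6a1 had 97.8 and 429 CPM in media and 145 and 329 CPM with anti-PD-L1, and Col1a1 69.2 and 890.4 against 158 and 563 CPM. The high value of each media pair is IL27v media 2. In IL27v, 7 members were wholly below media (Dpt, Postn, Tnc, Dcn, Lum, Loxl2 and Fap), beside 19.4% of all genes, and 3 were wholly above (Col4a1, Col4a2 and Fbln2, a fibulin of elastic fibres), beside 18.5%. These shares of members, 7 and 3 of 36, lie near or below the background.

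Markers of other cells moved with the same pair of groups. In IL27v tumours, the 10 pericyte and smooth muscle genes together reached 136 and 103 CPM with media and 381 and 408 CPM with anti-PD-L1. Most of this sum is Smtn, with a mean of 256 CPM beside 333 CPM for the list over all libraries. Smtn was the 1 gene of the 10 called higher, and the list's median log2 difference was 0.25 (edgeR). Apart from Smtn, the medians of the list's genes ran from 0.41 CPM for Myh11 to 18.8 CPM for Rgs5. Mcam had a median of 17.7 CPM and Notch3 of 15.0 CPM. Myh11 reached at most 7.50 CPM, and Cnn1 was at 0 in 4 libraries. The endothelial list reached 204 and 26.2 CPM with media there and 146 and 183 CPM with anti-PD-L1, overlapping, the neutrophil list to 55.2 and 52.0 CPM against 5.50 and 0.928 CPM, and the keratinocyte list to 23.8 and 3.60 CPM against 705 and 8.64 CPM. Their part in the Fap and Col4a2 results was not tested.

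With anti-PD-L1 in both arms, the vector comparison called none of the 36 genes, and none of all genes (0% by edgeR), while 6 members reached an unadjusted p under 0.05, all lower in IL27v, beside 1.01% of all genes lower and 2.41% higher. Among them Dpt had 50.4 and 40.2 CPM in EV and 9.15 and 20.1 CPM in IL27v, and Bgn had 2456 and 1963 against 1021 and 1409.6 CPM. In media the vector comparison also called none (0%), with 4 members higher and 5 lower at an unadjusted p under 0.05, beside 4.21% and 4.82% of all genes. There the lowest p among members belonged to the collagen IV chains, with a log2 difference of -1.41 ± 0.30 for Col4a1 and -1.51 ± 0.33 for Col4a2 (edgeR, adjusted p = 0.16 for both). The interaction of anti-PD-L1 and vector called none of the members and none of all genes (0%), with 3 members higher and 6 lower at an unadjusted p under 0.05, beside 5.06% and 2.56% of all genes.

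**Figure D4:**
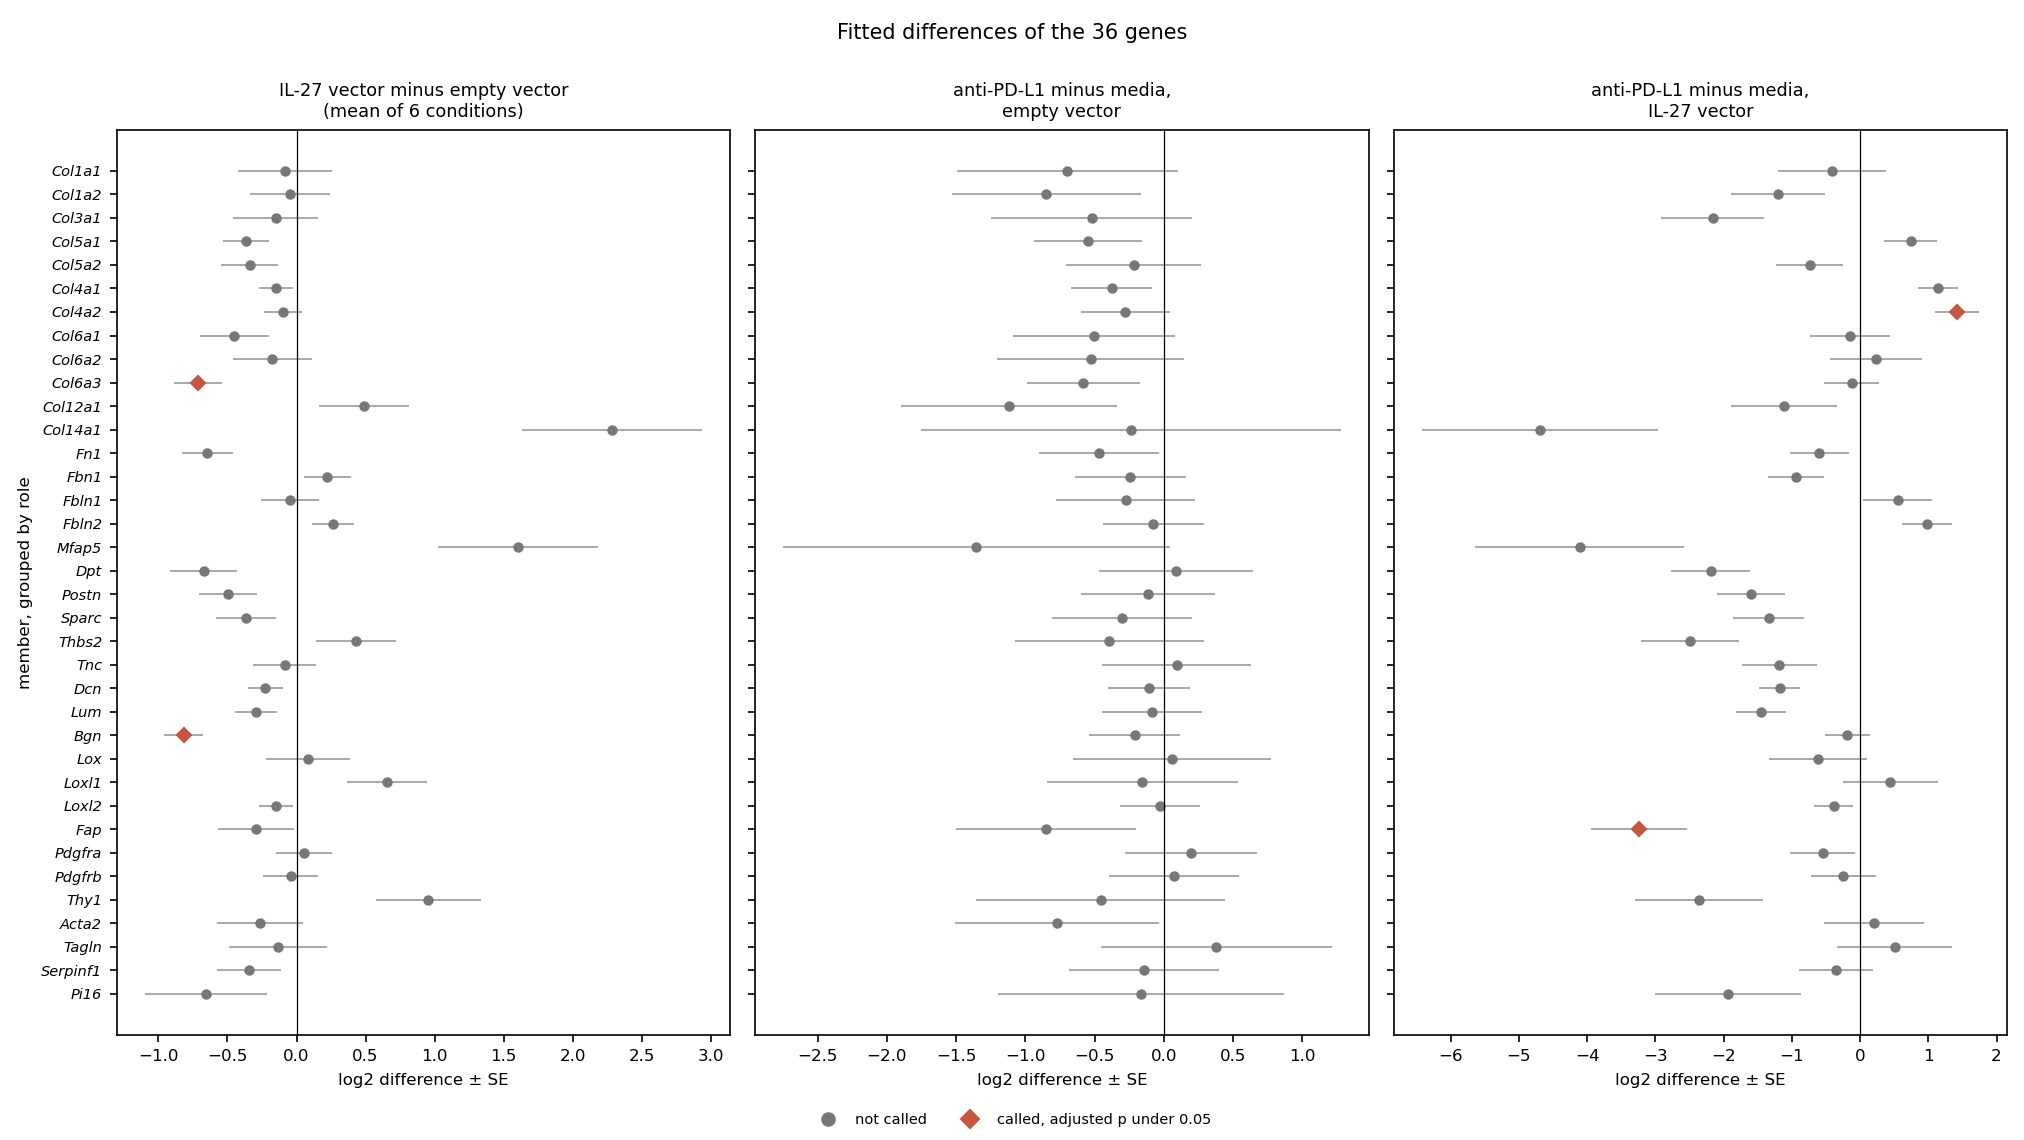
Fitted log2 differences with standard errors of the 36 genes for the vector (IL27v minus EV, mean of 6 conditions) and for anti-PD-L1 minus media in EV and in IL27v; red diamonds are genes called at an adjusted p under 0.05, and the 3 panels have different horizontal scales. Bgn and Col6a3 are called in the first panel, none in the second, and Fap and Col4a2 in the third, where standard errors are widest for Col14a1 and Mfap5.

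The 4 other exposures were each compared with media averaged over the vectors, and since all share the 4 media libraries they are not independent of each other or of anti-PD-L1. None of the 36 genes was called in any of them by edgeR. At an unadjusted p under 0.05, higher and lower members numbered 3 and 2 for cabozantinib, beside 7.69% and 2.82% of all genes, and 3 and 7 for docetaxel, beside 10.5% and 4.81%. They numbered 4 and 3 for IL-27, beside 8.68% and 3.22%, and 2 and 0 for the combination, beside 3.05% and 1.42%. At the adjusted threshold, all genes gave 0% for cabozantinib and for ex vivo IL-27, 0.00409% lower for cabozantinib plus IL-27, and 1.76% higher and 0.0286% lower for docetaxel. Col4a2 had a positive difference in each, with 0.77 ± 0.23 for cabozantinib (adjusted p = 0.36), 0.83 ± 0.25 for IL-27 (adjusted p = 0.22) and 0.67 ± 0.23 for docetaxel (adjusted p = 0.16). The IL27v media pair, at 169.9 and 202 CPM, stands in all of these. Over the 36 genes the differences rose with GC content, with Spearman correlations of 0.74 for cabozantinib, 0.68 for docetaxel, 0.57 for IL-27 and 0.35 for the combination.

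With docetaxel, the contractile genes had the smallest p of the members. Acta2, which encodes the smooth muscle actin of myofibroblasts and pericytes, had 2.55 and 2.22 CPM in EV media, 1.52 and 1.78 in IL27v media, 4.11 and 8.44 in EV docetaxel and 12.1 and 7.47 in IL27v docetaxel. All 4 docetaxel libraries were above all 4 media libraries, and the difference of 1.98 ± 0.53 did not pass the threshold (edgeR, adjusted p = 0.070). The share of all genes separated in this way was not counted. At an unadjusted p under 0.05, 10.5% of all genes were higher with docetaxel (edgeR). Tagln, which encodes the actin-binding protein transgelin, had 2.10 and 1.01 CPM in EV media, 1.41 and 1.28 in IL27v media, 2.46 and 4.72 in EV docetaxel and 13.4 and 4.70 in IL27v docetaxel, again without overlap (1.98 ± 0.61, adjusted p = 0.12). DESeq2 called 3 members in this comparison, Acta2, Tagln and Col4a2, among 1672 genes in all, where edgeR called 437. The highest values of both genes belong to IL27v docetaxel 1, the library outside the sets. Keratinocyte markers summed to 3753 and 3434 CPM in IL27v docetaxel and to 4.55 and 11.6 CPM in EV docetaxel, and the pericyte and smooth muscle list to 467 and 572 CPM in EV docetaxel, beside 358 and 516 CPM in EV media. In IL27v that list lay between 303 and 403 CPM with docetaxel and between 103 and 136 CPM with media. Most of the list's sum is Smtn, with a mean of 256 CPM beside 333 CPM for the list over all libraries. The median log2 difference of its 10 genes with docetaxel was 0.79. Smtn and the endothelial genes Tie1 and Egfl7 were called higher with docetaxel, beside 1.76% of all genes (edgeR). So were the keratinocyte genes Krt10, Sprr1b and Sfn, the adipocyte gene Lipe and the matrix gene Col7a1. Their part in the Acta2 and Tagln levels was not tested.

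**Figure D5:**
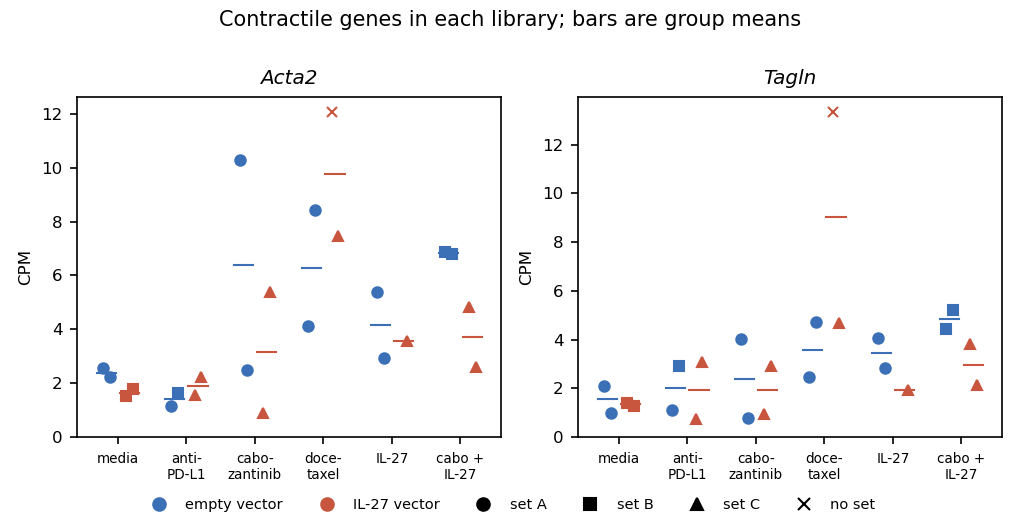
CPM (linear axis) of Acta2 and Tagln in every library by ex vivo condition, with blue for EV, red for IL27v, shapes for the sets and bars for group means. All 8 media points, over the 2 genes, lie below the docetaxel points of the same gene, and the highest points, 12.1 and 13.4 CPM, are IL27v docetaxel 1.

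With cabozantinib plus IL-27, Acta2 had 6.88 and 6.81 CPM in EV and 4.84 and 2.58 CPM in IL27v (1.35 ± 0.52 over media, edgeR adjusted p = 0.88). Col3a1 had 1322 and 1350.4 CPM in EV and 1558 and 1466 CPM in IL27v, and Dcn 1442 and 1421 against 1369.9 and 1097 CPM. Both EV libraries of this group are in set B and both IL27v libraries in set C. With ex vivo IL-27, Dcn was 627 and 827 CPM in EV, the lowest EV levels of that gene, and 1086 CPM in the IL27v library. Lum was 15.1 and 36.9 CPM in EV and 49.7 CPM in the IL27v library, with a difference from media of -0.88 ± 0.29 (edgeR, adjusted p = 0.26).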

How the data were processed

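RNA was measured in 23 poly(A) stranded libraries from tumour sections whose RNA integrity number had to reach 8, per the labels. What the authors deposited is a single table of estimated counts for each gene, already whole numbers. Tools named in the submitters' processing notes are cutadapt, HISAT2, StringTie and DESeq2, with build GRCm38. Their settings and the counting strand are not given in the sources used. The deposited values are not plain fragment counts, since 143 genes, none of them a member, hold the same nonzero count in every library. Samples were grouped by title. GENCODE M21 gave symbols to 55141 identifiers and none to 260.

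Differences were tested in R 4.3.3 with edgeR 4.0.16 (TMM scaling, filterByExpr by group, quasi-likelihood test) in 1 model of the 12 groups, with 11 residual degrees of freedom, and p-values were adjusted over 24440 genes. A gene was called at an adjusted p under 0.05. Tested on simulated data of 22781 genes for the vector comparison, the fit recovered 72 of 100 genes changed 2-fold and 96 of 100 changed 4-fold, with 10 false calls. The simulated counts held no sets, GC trends or effects of condition. They cannot tell how often the fit errs where these are present, as in the real libraries. Set B needed 5 CPM of Ngp and set C 100 CPM over 13 muscle genes without Ngp, and Eno3 was left out of that sum after its values were seen. Depth was 47641781 to 83088346 counts. Members named by rule were those called, those with the smallest p up to 8, and the highest of each role, with medians and ranges for groups over 5 libraries. The members, lists and tests were chosen with earlier results of these data known. Alternatives were DESeq2 1.42.0, RLE size factors, low-count filters that were absent or stricter (1 CPM in 4 libraries), a block for the replicate number, only the groups compared, additive models, removal of each library's GC trend (smoother span 0.3, chosen after seeing the data, with limma 3.58.1 loaded by edgeR) and leaving out each library in turn.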

Additional observations from a re-analysis of the deposited data

How the results depend on the processing

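Leaving out 1 library at a time, the members called numbered 1 to 4 for the vector averaged over conditions, 0 to 0 for anti-PD-L1 averaged, 0 to 0 in EV, 0 to 6 in IL27v, 0 to 2 for the interaction, 0 to 0 for the vector in anti-PD-L1, 0 to 5 for the vector in media, 0 to 3 for cabozantinib, 0 to 3 for docetaxel, 0 to 4 for IL-27 and 0 to 0 for the combination. In the same fits and order, all genes called numbered 394 to 1244, 0 to 101, 0 to 0, 0 to 716, 0 to 341, 0 to 0, 0 to 303, 0 to 346, 0 to 1251, 0 to 3821 and 1 to 14. Where a group keeps 1 library, that library is assumed to vary like the other groups. The Col6a3 call was lost without EV media 2, EV anti-PD-L1 1, EV cabozantinib 2, EV docetaxel 1, IL27v anti-PD-L1 1, IL27v cabozantinib 2, IL27v docetaxel 1 or any of the 4 cabozantinib plus IL-27 libraries (-0.73 to -0.64). The calls of both Fap and Col4a2 were lost without EV media 2, EV cabozantinib 2, EV docetaxel 1, IL27v media 2, either library of IL27v anti-PD-L1 or IL27v cabozantinib, or any cabozantinib plus IL-27 library, and that of Col4a2 also without IL27v media 1 or either IL27v docetaxel library. Fap was then -3.27 to -1.85 and Col4a2 1.34 to 1.55. The median of the 36 genes for anti-PD-L1 in IL27v, -0.61 with all libraries, was 0.38 without IL27v media 2 and -1.37 without IL27v anti-PD-L1 2.

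Members called with DESeq2 numbered 4 for the vector averaged, 1 for anti-PD-L1 averaged, 10 in IL27v, 2 for the interaction, 4 for the vector in media, 3 for docetaxel and 3 for IL-27. Without the low-count filter they numbered 11, 8, 16, 6, 7, 10 and 1 in the same order, and 1 for the vector in anti-PD-L1. For anti-PD-L1 in IL27v they numbered 1 with RLE size factors, 5 with at least 1 CPM in 4 libraries, 0 with only the groups compared and 0 with the GC trend removed, where Col4a2 reversed to -0.39. For the vector averaged they numbered 0 in the additive model with the set of libraries and 4 with the GC trend removed. All genes called for the vector numbered 722, beside 1944 with DESeq2, 1631 without the filter, 1095 with the GC trend removed and 0 with the set as a term; for anti-PD-L1 in IL27v 212, beside 1116, 1423, 33 and, with only the groups compared, 0. Where no all-gene count is given for a fit, its member count cannot be set against a background. The causes of these changes were not tested.

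Over 55 pairs of groups, deviations of same-numbered libraries correlated at -0.34 to 0.30 (median 0.014). Because libraries also differ by set and GC trend, these correlations cannot tell whether same-numbered libraries share a mouse, and the labels do not say. With the replicate number as a block, members called numbered 2 for the vector averaged (Col6a3 adjusted p = 0.0498) and 0 for anti-PD-L1 in IL27v (Fap adjusted p = 0.055, Col4a2 0.073, by edgeR), where all genes called numbered 75. Depth limits the members of lowest level, with as few as 7 counts of Col14a1 and 21 of Fap in a library.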

Other observations

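Other matrix genes, on lists chosen with earlier results of these data known, also differed between the vectors. Set A holds only EV and set C only IL27v libraries, so vector and set cannot be fully told apart here. Of 34 further matrix genes, 4 were called higher in IL27v and 0 lower, beside 2.28% and 0.671% of all genes: Eln (elastin), Fbln5 (a fibulin of elastic fibres), and Fmod and Prelp (leucine-rich proteins that bind collagen). Fbln5 averaged 2.86 ± 1.03 CPM in EV and 6.40 ± 2.85 CPM in IL27v (SD, n = 12 and 11), a log2 difference of 1.14 ± 0.24 (edgeR, adjusted p = 0.016). Prelp averaged 1.60 ± 1.50 and 10.6 ± 13.5 CPM, and Eln 0.510 ± 0.525 and 4.33 ± 5.24 CPM, with an SD in IL27v above the mean for both. Fmod averaged 0.210 ± 0.237 and 1.14 ± 0.916 CPM. Eln and Fmod were each at 0 in 4 libraries. Of 19 collagen processing enzymes, 1 was called, Adamts2, which trims procollagen, higher in IL27v with a mean of 4.03 ± 2.84 CPM for EV and 15.6 ± 13.5 CPM for IL27v libraries (log2 difference 1.99 ± 0.52, edgeR, adjusted p = 0.049). Of 18 genes of the TGF-beta pathway, a main inducer of matrix genes, 1 was called, Tgfb3, lower in IL27v (0.671% of all genes were called lower) at 72.3 ± 20.2 against 106 ± 22.9 CPM (-0.59 ± 0.15, edgeR, adjusted p = 0.039). The pathway's genes summed to 1275 to 2528 CPM in EV and 1524 to 2326 CPM in IL27v, which overlapped.

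For anti-PD-L1 in IL27v, 1 of the 34 further matrix genes was called higher, beside 0.863% of all genes. It was Col7a1, which anchors basement membranes, at 2.33 ± 0.45 (edgeR, adjusted p = 0.029). Smtn, a smooth muscle cytoskeletal gene and 1 of 10 on the pericyte and smooth muscle list, was higher by 2.47 ± 0.41 (adjusted p = 0.024). No gene of the endothelial (10), adipocyte (8), macrophage (10), neutrophil (10) or epithelial (8) lists was called for the vector or for anti-PD-L1 (edgeR). For the vector, 13 of 14 skeletal muscle genes and 7 of 11 keratinocyte genes were called higher in IL27v, beside 2.28% of all genes. Des, on the pericyte and smooth muscle list, was also called higher there. The muscle genes also define the sets. Sprr1b, on the keratinocyte list, was called higher for anti-PD-L1 in IL27v.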
